A study of Mus musculus with 6 samples.

Results

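The collagen chains are the protein subunits of the collagens, the main structural proteins of the extracellular matrix, and each is encoded by a gene whose symbol is Col, a number, a, and a number. All genes with such a symbol in the RefSeq annotation were taken, whatever their values, and 43 of the 44 chains it lists were found among the 20630 named genes of the array. *Col12a1* was not analyzed here. The chains comprised 11 fibrillar chains, the 6 chains of collagen IV (the basement membrane class), and 26 chains of other classes. Detection on at least 3 of the 6 arrays was required for testing, and 40 chains passed, 33 of them detected on all 6. *Col2a1* and *Col19a1*, both of cartilage or embryonic tissue, and *Col9a3* were well above background on no array and have no level here.

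Gene expression was measured in interscapular brown adipose tissue (iBAT), the thermogenic fat between the shoulder blades, of 3 control and 3 *ob/ob* mice. All were 16-week-old males on the C57BL/6 background. *Ob/ob* mice carry a mutated leptin gene in every cell, eat in excess, and become obese, so a difference between the groups is one between obese leptin-deficient and control animals and is not tied to a single cell type. The labels do not say what genotype the controls had beyond "control", whether they were littermates, or whether each array held RNA of 1 mouse or of a pool, so the spread between samples may be in part technical. Each RNA was hybridized to 1 single-dye Agilent array, and values are log2 signals, quantile normalized between the arrays, of the brightest probe of a gene. A step of 1 on this scale is a 2-fold change. The level of one probe cannot be set against that of another.

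Collagen chains wind around each other into a helix. The fibrillar collagens, chiefly types I, III, and V in soft tissue, form the cables that carry tension and are made mainly by fibroblasts. Collagen IV forms the sheet-like network of basement membranes, which enclose each adipocyte, capillary, and muscle fiber. The other collagens decorate fibrils, anchor membranes, or link cells to the matrix, and collagen VI in particular forms beaded filaments around adipocytes. In obese white fat, a surplus of collagen is a known feature of fibrosis.

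The 6 arrays did not sort by group. Over all probes, control 1 and control 2 had a Spearman correlation of 0.964, and *ob/ob* 1 and *ob/ob* 2 of 0.967, whereas control 3 correlated at 0.944 with *ob/ob* 2 and at 0.642 with control 1, and *ob/ob* 3 at 0.858 with control 1 and at 0.488 with *ob/ob* 2. The differences between groups rest on the labels as given, and the labels of these 2 arrays were checked only with *Lep*. Differences without these arrays are given after those over all 6. The label check gave *Lep* signals of 5.74, 4.57, and 5.30 in controls 1 to 3 and 6.68, 5.83, and 9.33 in *ob/ob* 1 to 3, and the groups did not overlap, though *ob/ob* 2 lay just above control 1. The *Lep* difference had an unadjusted p of 0.0641 in limma, and the groups did not overlap in 7.95% of all genes tested. This check therefore cannot settle the labels. The brown fat label was checked with *Ucp1*, the uncoupling protein of brown adipocytes, which was detected on all 6 arrays at 13.05, 11.72, and 9.48 in controls and 8.93, 9.12, and 10.03 in *ob/ob* mice. Between 83.5% and 89.9% of spots lay well above background and none was saturated, and the number of arrays limits the precision.

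No collagen chain passed an adjusted p under 0.05 in limma (0 of 40), and neither did any of the 19011 genes tested (0.0%). At an unadjusted p under 0.05 the count was also 0 of 40, whereas 3.72% of all genes tested passed. No chain was higher at an unadjusted p under 0.05 with a 2-fold change, against 1.69% of all genes, and none was lower, against 1.49%. The sign was above 0 for 12 chains (30%) and below 0 for 28, and 42.9% of all genes lay above 0. *Col1a2* alone of the 40 (2.5%) had a mean difference of at least 2-fold, compared with 13.2% of all genes. Every chain named had an adjusted p of 1.0. In 1 chain, *Col22a1* (2.5%), the groups did not overlap, against 7.95% of all genes. It was higher in *ob/ob* mice (3.76% of all genes did not overlap in that direction), and 0 chains were lower without overlap (4.19% of all genes).

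**Figure D1:**
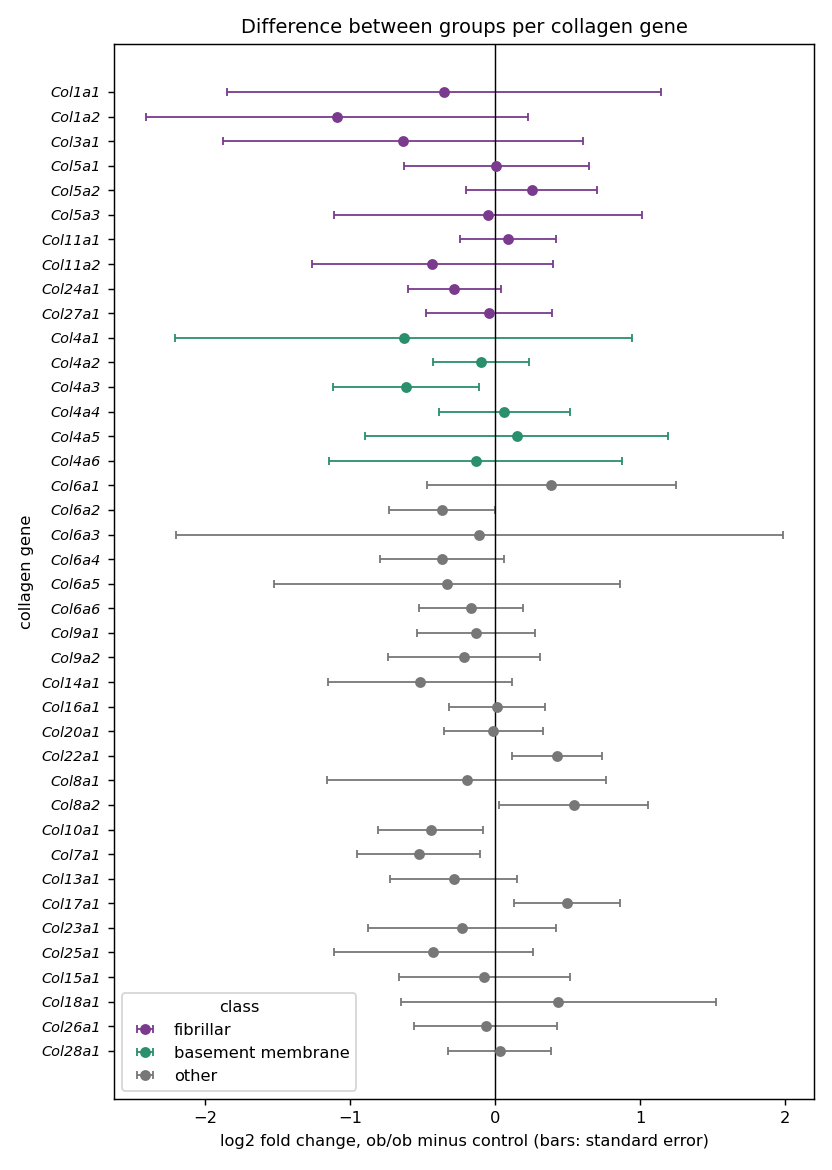
Log2 fold change, *ob/ob* minus control, of the 40 collagen genes tested, with the standard error of the limma fit as bars and colors for the class. The points lie between -1.09 (*Col1a2*) and 0.54 (*Col8a2*), and the widest bar belongs to *Col6a3* (SE 2.09).

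The small mean differences stood beside a wide spread within the groups. In 17 of the 40 chains (42.5%), the signal spanned at least 2 log2 units over the 6 arrays, which 44.7% of all genes did. In 13 chains (32.5%), control 3 was the lowest control and *ob/ob* 3 the highest *ob/ob* sample, compared with 34.5% of all genes. In 17 chains (42.5%), control 3 was the highest control and *ob/ob* 3 the lowest *ob/ob* sample, compared with 46.7% of all genes. Both shares are close to those of all genes, so the split itself is not particular to collagens. By class, control 3 was lowest and *ob/ob* 3 highest in 60% of the fibrillar, 16.7% of the basement membrane, and 25% of the other chains tested. The reverse order was found in 10%, 50%, and 54.2%. No difference between classes was tested. The chains on each side are named below.

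Type I collagen is built from the products of *Col1a1* and *Col1a2*. *Col1a1* read 10.86, 10.72, and 8.76 in controls 1 to 3 and 8.11, 7.96, and 13.20 in *ob/ob* 1 to 3. *Ob/ob* 3 was the highest array and *ob/ob* 1 and 2 the lowest, with all controls between them. The difference was -0.35 (SE 1.5; unadjusted p = 0.821 in limma). *Col1a2* read 9.43, 9.31, and 7.61 in controls and 6.43, 5.95, and 10.70 in *ob/ob* mice, and the order of the arrays was close to that of *Col1a1*. Its difference of -1.09 (SE 1.32; unadjusted p = 0.438 in limma) was the lowest of all chains. *Col3a1*, whose homotrimers join type I in pliable tissue, read 10.76, 11.10, and 8.77 in controls and 8.22, 8.26, and 12.24 in *ob/ob* mice. Here too the controls lay between *ob/ob* 3 and the other *ob/ob* arrays, and the difference was -0.64 (SE 1.24; unadjusted p = 0.625 in limma).

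The type I and III signals ran together over the arrays, and the promoter windows of *Col1a2* and *Col3a1* are shown to let their start regions be compared. They are from RefSeq (assembly GRCm38.p6), are 300 bases long with most of their length before the annotated start, and are written in the gene's direction. *Col1a2* lies on the plus strand at chr6:4505368-4505667, and *Col3a1* on the plus strand at chr1:45311288-45311587. Capitals mark 3 motifs on either strand: TATAAA, then CCAAT (written ATTGG when on the other strand), and last GGGCGG (written CCGCCC when on the other strand).
Col1a2: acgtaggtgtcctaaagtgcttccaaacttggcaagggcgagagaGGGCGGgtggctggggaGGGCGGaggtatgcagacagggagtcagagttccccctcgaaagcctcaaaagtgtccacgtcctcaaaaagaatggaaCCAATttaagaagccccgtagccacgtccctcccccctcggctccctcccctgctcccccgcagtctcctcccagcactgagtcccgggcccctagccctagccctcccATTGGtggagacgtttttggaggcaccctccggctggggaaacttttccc
Col3a1: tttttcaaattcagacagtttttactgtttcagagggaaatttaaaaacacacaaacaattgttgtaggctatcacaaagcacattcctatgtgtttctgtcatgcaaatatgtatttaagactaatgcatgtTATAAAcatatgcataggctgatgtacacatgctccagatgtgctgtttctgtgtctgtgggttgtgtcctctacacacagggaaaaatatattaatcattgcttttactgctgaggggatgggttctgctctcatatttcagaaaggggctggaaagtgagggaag
The *Col1a2* window had 61.0% G and C and held CCAAT and GGGCGG, and the *Col3a1* window had 37.7% and held TATAAA. None of the 3 motifs was common to both. Of the 38 windows listed for 35 collagen genes, 23 (60.5%) held GGGCGG, compared with 35.7% of all 32851 windows in the table, and 13 (34.2%) held CCAAT, compared with 37.4%. TATAAA was found in 5 (13.2%), compared with 13.6% of all. The median G and C content of the collagen windows was 59.8%, and that of all windows 52.7%. These letter matches are descriptions and are not binding sites.

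Type V collagen nucleates fibrils and sets their width. *Col5a1* read 7.22, 7.57, and 6.72 in controls and 6.48, 6.53, and 8.53 in *ob/ob* mice, a difference of 0.0083 (SE 0.64). *Ob/ob* 3 was again the highest array and the other *ob/ob* arrays the lowest. *Col5a2* read 5.92, 6.25, and 6.48 in controls and 6.03, 6.10, and 7.29 in *ob/ob* mice (0.25, SE 0.45), and differed from *Col5a1* in that control 3 was the highest control. *Col5a3* read 8.06, 8.01, and 6.32 in controls and 6.48, 6.06, and 9.70 in *ob/ob* mice (-0.049, SE 1.06). The groups overlapped in all 3 chains.

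The other fibrillar chains are known from cartilage or from few cell types. *Col11a2* read 6.78, 7.38, and 8.09 in controls and 7.33, 8.34, and 5.28 in *ob/ob* mice (-0.43, SE 0.83), and it was the only fibrillar chain with control 3 highest among controls and *ob/ob* 3 lowest among *ob/ob* arrays. *Col24a1* ranged over 0.56 log2 units only, from 4.99, 5.26, and 5.29 in controls to 4.73, 5.21, and 4.75 in *ob/ob* mice (-0.28, SE 0.32). *Col11a1* was detected on 3 arrays and *Col27a1* on 4, and both were dim. *Col11a1* read 3.77, 4.36, and 4.27 in controls and 4.41, 4.15, and 4.09 in *ob/ob* mice (0.089, SE 0.33). *Col27a1* read 5.01, 4.61, and 3.80 in controls and 4.16, 4.29, and 4.85 in *ob/ob* mice (-0.042, SE 0.44). Among the 10 fibrillar chains tested, 6 (60%; all genes 34.5%) had control 3 lowest and *ob/ob* 3 highest in their groups. They were *Col1a1*, *Col1a2*, *Col3a1*, *Col5a1*, *Col5a3*, and *Col27a1*. *Col27a1* was not well above background on control 3 and *ob/ob* 2, so its order rests partly on readings that are not measured levels.

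**Figure D2:**
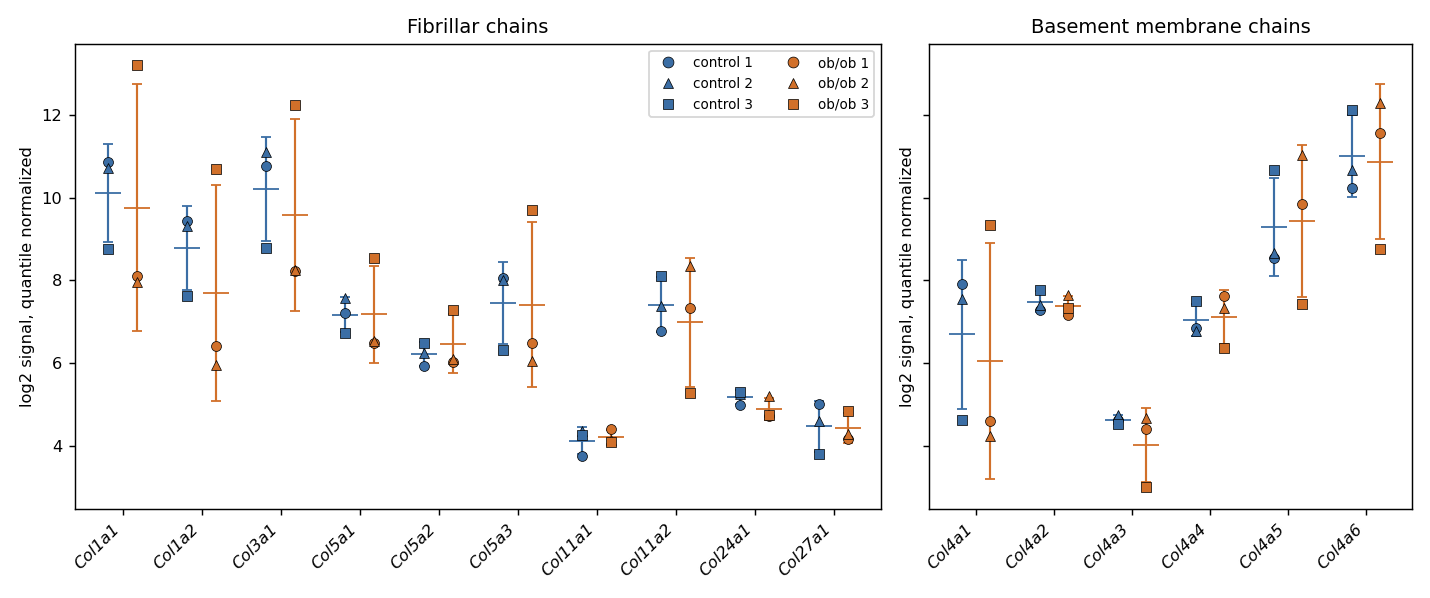
Log2 signal (quantile normalized) of each array for the 10 fibrillar chains tested and the 6 basement membrane chains, with horizontal lines for the group mean and bars for the SD (n = 3 per group). Blue is control and orange *ob/ob*, with a circle, triangle, and square for replicates 1, 2, and 3, and in *Col1a1* the *ob/ob* square at 13.20 stands above all other arrays while the other *ob/ob* points lie at 8.11 and 7.96.

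The collagen IV genes lie in head-to-head pairs that share a start region. The pair of *Col4a1* and *Col4a2* is shown because their signals parted over the arrays, and that of *Col4a5* and *Col4a6* because theirs ran together. The pair of *Col4a3* and *Col4a4* is not shown, since no window was listed for *Col4a3*. The windows of *Col4a1* (minus strand, chr8:11312777-11313076) and *Col4a2* (plus strand, chr8:11312555-11312854) overlap by 78 bases in the RefSeq table (GRCm38.p6). Those of *Col4a6* (minus strand, chrX:141474027-141474326) and *Col4a5* (plus strand, chrX:141475169-141475468) lie 842 bases apart. Capitals mark the same motifs as above.
Col4a1: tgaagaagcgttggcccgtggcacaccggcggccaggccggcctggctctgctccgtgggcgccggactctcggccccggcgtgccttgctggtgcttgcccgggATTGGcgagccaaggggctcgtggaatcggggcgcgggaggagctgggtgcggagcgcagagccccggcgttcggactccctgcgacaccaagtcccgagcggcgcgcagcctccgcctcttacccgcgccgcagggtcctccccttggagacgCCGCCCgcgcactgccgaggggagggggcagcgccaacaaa
Col4a2: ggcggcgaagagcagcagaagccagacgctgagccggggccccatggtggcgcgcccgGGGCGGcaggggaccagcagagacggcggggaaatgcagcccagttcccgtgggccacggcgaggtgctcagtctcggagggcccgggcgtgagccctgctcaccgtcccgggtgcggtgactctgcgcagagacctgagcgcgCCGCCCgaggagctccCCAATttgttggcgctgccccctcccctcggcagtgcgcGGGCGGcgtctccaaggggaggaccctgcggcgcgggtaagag
Col4a5: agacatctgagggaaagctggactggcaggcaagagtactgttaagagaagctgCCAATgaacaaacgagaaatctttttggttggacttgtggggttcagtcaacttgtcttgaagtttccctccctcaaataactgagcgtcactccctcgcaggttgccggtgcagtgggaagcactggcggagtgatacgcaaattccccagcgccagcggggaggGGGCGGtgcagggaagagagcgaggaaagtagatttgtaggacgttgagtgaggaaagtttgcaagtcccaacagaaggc
Col4a6: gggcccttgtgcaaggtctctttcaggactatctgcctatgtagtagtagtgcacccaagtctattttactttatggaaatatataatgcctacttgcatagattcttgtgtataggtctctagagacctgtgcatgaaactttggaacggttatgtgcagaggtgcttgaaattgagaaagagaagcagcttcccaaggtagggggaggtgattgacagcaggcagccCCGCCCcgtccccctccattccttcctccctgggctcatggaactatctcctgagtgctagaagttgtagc
The *Col4a1* and *Col4a2* windows had 74.0% and 73.7% G and C, and those of *Col4a5* and *Col4a6* 52.7% and 48.3%. All 4 held GGGCGG on one strand or the other, and none held TATAAA.

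The protein chains of *Col4a1* and *Col4a2* assemble together into the collagen IV network found in nearly all basement membranes. *Col4a1* read 7.90, 7.56, and 4.63 in controls and 4.61, 4.23, and 9.35 in *ob/ob* mice, a range of 5.12 log2 units whose lowest reading, in *ob/ob* 2, was not well above background. Control 3 was at the level of *ob/ob* 1 and 2, and *ob/ob* 3 was above all controls (-0.63, SE 1.57; unadjusted p = 0.701 in limma). *Col4a2* read 7.28, 7.40, and 7.76 in controls and 7.16, 7.65, and 7.33 in *ob/ob* mice, a range of 0.61 (-0.10, SE 0.33). The array pattern of *Col4a1* was thus not seen in the signal of its *Col4a2* probe.

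*Col4a5* and *Col4a6* encode chains of smooth muscle and epithelial basement membranes, and *Col4a5* joins *Col4a3* and *Col4a4* in the kidney glomerulus. *Col4a5* read 8.53, 8.67, and 10.66 in controls and 9.84, 11.04, and 7.43 in *ob/ob* mice (0.15, SE 1.04). *Col4a6* read 10.23, 10.68, and 12.11 in controls and 11.56, 12.29, and 8.76 in *ob/ob* mice (-0.14, SE 1.01). In both, control 3 lay among *ob/ob* 1 and 2 at the high end and *ob/ob* 3 was the lowest array, the reverse of *Col4a1*. A dimmer second probe of *Col4a6*, detected on 4 arrays, did not show this, with 4.24, 4.08, and 4.10 in controls and 3.89, 4.0, and 4.43 in *ob/ob* mice. *Col4a4* read 6.84, 6.79, and 7.5 in controls and 7.61, 7.33, and 6.37 in *ob/ob* mice (0.061, SE 0.45), again with *ob/ob* 3 lowest. *Col4a3* was dim, at 4.63, 4.76, and 4.53 in controls and 4.4, 4.67, and 3.0 in *ob/ob* mice (-0.61, SE 0.50; unadjusted p = 0.266 in limma). Its reading in *ob/ob* 3 stood apart from the other arrays but was not well above background, so it is not a measured level.

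Among the 24 tested chains of other classes, the differences ran from -0.53 (*Col7a1*, of anchoring fibrils) to 0.54 (*Col8a2*, of hexagonal networks), with 7 above 0 and 17 below. *Col22a1*, a chain of tissue junctions that decorates other matrix fibers, was the only one whose groups did not overlap. It read 4.10, 4.33, and 4.16 in controls and 4.55, 4.43, and 4.89 in *ob/ob* mice, and every *ob/ob* array was above every control. The difference was 0.43 (SE 0.31; unadjusted p = 0.218 in limma; exact two-sided permutation p = 0.10, the smallest that 3 samples against 3 allow), and the probe was well above background on 2 of 3 control arrays and on 3 of 3 *ob/ob* arrays.

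The chains of the other classes named next were chosen after their values were seen, for a wide spread over the arrays or as partners of such chains. *Col6a3*, the large chain of the beaded filament and the source of the fragment endotrophin, had the widest range of readings, 7.11 log2 units, but was not well above background on control 3 and *ob/ob* 2, so its low readings are not measured levels. It read 8.36, 8.46, and 3.91 in controls and 5.19, 4.20, and 11.02 in *ob/ob* mice (-0.11, SE 2.09), and *ob/ob* 3 was the highest array and control 3 the lowest. *Col6a1*, a partner of *Col6a3* in the same filament, read 7.20, 7.16, and 6.13 in controls and 6.4, 6.13, and 9.12 in *ob/ob* mice (0.39, SE 0.86) and had the same highest array. *Col6a5*, a chain related to *Col6a3*, ran the other way, at 6.18, 6.74, and 9.07 in controls and 8.36, 7.93, and 4.70 in *ob/ob* mice (-0.33, SE 1.19). *Col18a1*, a basement membrane proteoglycan collagen and the source of endostatin, read 6.77, 6.63, and 5.29 in controls and 5.45, 5.42, and 9.13 in *ob/ob* mice (0.43, SE 1.09), so *ob/ob* 3 was again highest. *Col8a1*, of the network beneath endothelium, read 7.17, 6.63, and 5.61 in controls and 5.14, 5.28, and 8.39 in *ob/ob* mice (-0.20, SE 0.96). Its partner *Col8a2* read 6.28, 5.86, and 6.72 in controls and 7.11, 7.47, and 5.90 in *ob/ob* mice (0.54, SE 0.52), with *ob/ob* 3 the lowest of its group.

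In 13 of the 24 chains (54.2%), control 3 was the highest control and *ob/ob* 3 the lowest *ob/ob* array, an order that 46.7% of all genes had. Besides *Col6a5* and *Col8a2*, these were *Col6a4* and *Col6a6* of beaded filaments, *Col9a1*, *Col9a2*, *Col14a1*, and *Col16a1*, which attach to the surface of fibrils, the transmembrane chains *Col13a1*, *Col23a1*, and *Col25a1*, and *Col26a1* and *Col28a1*. In 6 of the 24 (25%; all genes 34.5%), *Col6a1*, *Col6a3*, *Col7a1*, *Col8a1*, *Col15a1*, and *Col18a1*, control 3 was lowest and *ob/ob* 3 highest in their groups. *Col15a1* and *Col18a1*, the only members of their subclass (the multiplexins), were both among these 6 by their brightest probes. *Col6a2*, *Col10a1*, *Col17a1*, *Col20a1*, and *Col22a1* showed neither order.

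**Figure D3:**
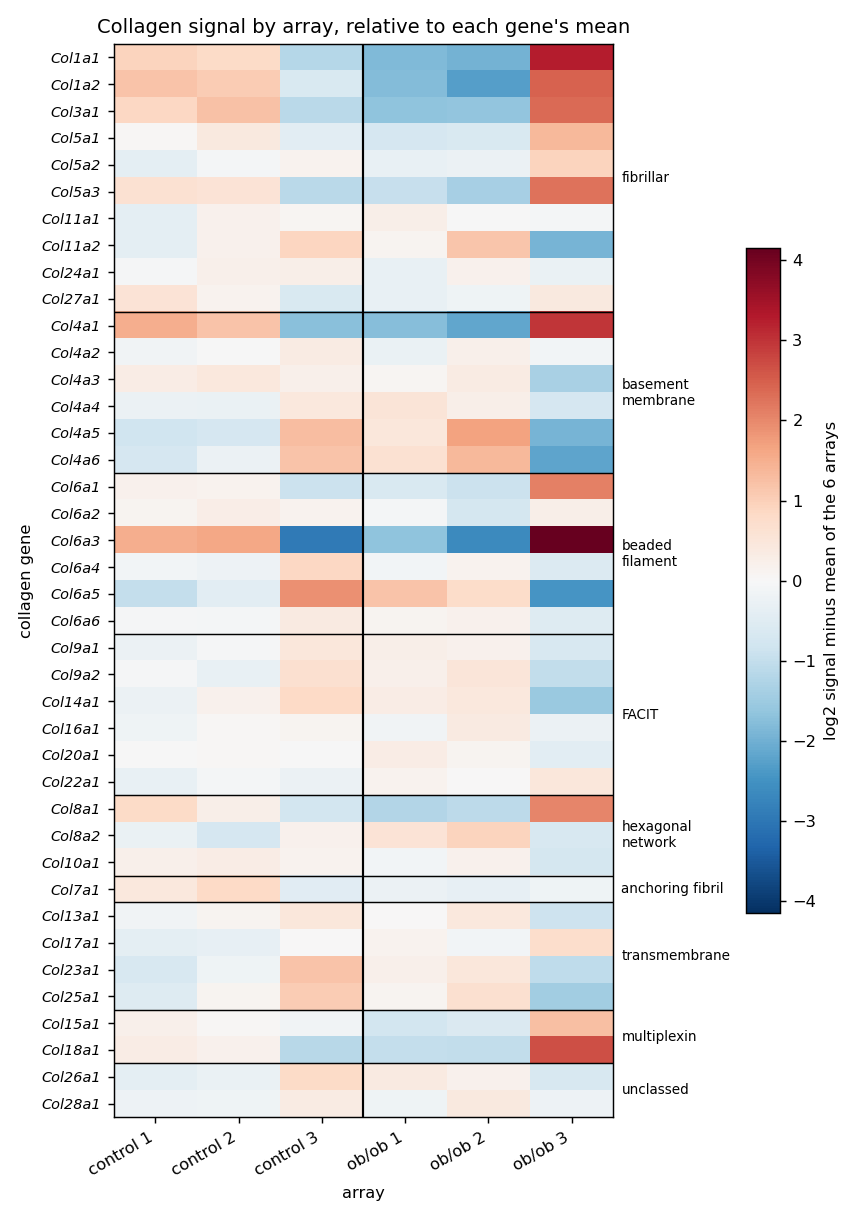
Log2 signal of each collagen gene on each array minus the gene's mean over the 6 arrays (color, log2 units), with genes in rows by class and arrays in columns. *Col1a1*, *Col3a1*, *Col4a1*, *Col6a3*, and *Col18a1* are high (red) in *ob/ob* 3, whereas *Col4a5*, *Col4a6*, *Col6a5*, and *Col11a2* are low (blue) there.

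By class, the median log2 fold change was -0.17 for fibrillar chains (3 above 0 and 7 below), -0.12 for basement membrane chains (2 and 4), and -0.15 for the other chains (7 and 17), beside -0.085 for all genes tested. These medians are descriptions, since chains are not replicates, and no difference between classes was tested. Over the arrays, the classes ran in different directions, also without a test. The median fibrillar deviation from each gene's mean was 0.30, 0.31, and -0.54 in controls 1 to 3 and -0.51, -0.45, and 1.15 in *ob/ob* 1 to 3. For the basement membrane chains it was -0.19, -0.14, and 0.38 in controls and 0.28, 0.30, and -1.02 in *ob/ob* mice, opposite in sign on every array. The size of the *ob/ob* 3 value depends in part on *Col4a3*, which was not well above background on that array. For the other chains the median deviation was -0.14, 0.038, and 0.16 in controls and 0.052, 0.19, and -0.50 in *ob/ob* mice. All genes tested gave -0.049, 0.062, and 0.16 in controls and -0.0054, 0.12, and -0.20 in *ob/ob* mice, and the other chains lay closer to these than to the basement membrane chains on every array except control 1. *Col4a1* stands on the fibrillar side within the basement membrane class, and *Col11a2* on the opposite side within the fibrillar class.

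**Figure D4:**
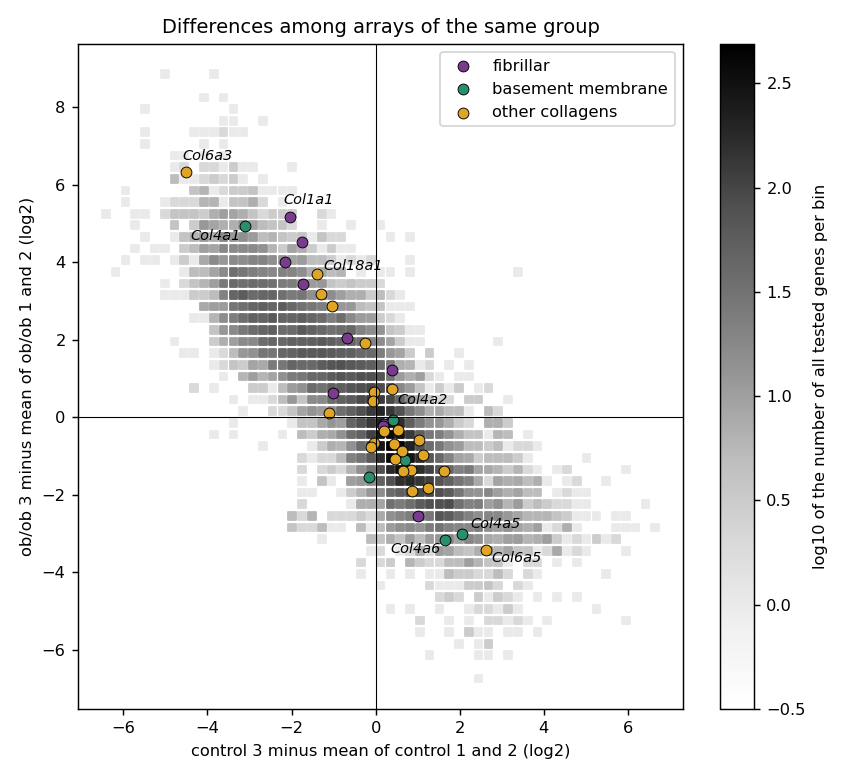
For each gene, control 3 minus the mean of controls 1 and 2 (x axis, log2) against *ob/ob* 3 minus the mean of *ob/ob* 1 and 2 (y axis, log2), with collagen genes as colored points by class and all 19011 genes tested as gray bins (darker is more genes, log10 scale). *Col6a3* lies at -4.51 and 6.32, *Col1a1* at -2.04 and 5.16, *Col4a2* near the center at 0.42 and -0.073, and *Col6a5* at 2.61 and -3.44, along the same diagonal as the other genes.

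The calls for the collagen chains depended on *ob/ob* 3 and control 3. Without *ob/ob* 3, the 3 chains lower in *ob/ob* mice at 2-fold and an unadjusted p under 0.05 were those of types I and III, and 1 chain was higher. The log2 difference was then -2.07 for *Col1a1* (unadjusted p = 0.0317 in limma). It was -2.59 for *Col1a2* (unadjusted p = 0.00901 in limma) and -1.97 for *Col3a1* (unadjusted p = 0.0456 in limma). The higher chain was *Col8a2* by its brightest probe, at 1.01 (unadjusted p = 0.0367 in limma). All 4 had an adjusted p of 0.50. By the same rule 3.68% of all genes were lower without this array, beside 3 of the 40 chains (7.5%), and 4.47% were higher, beside 1 chain (2.5%). With both arrays left out, 18 of 40 chains (45%) passed an adjusted p under 0.05, but so did 49.5% of all genes tested. Past 2-fold as well, 8 chains (20%) were lower, against 23.2% of all genes, and 4 (10%) were higher, against 16.5%. These were arrays set aside because they stood apart, with 2 left in each group, so the calls are not independent evidence. The 8 lower chains were *Col1a1* (-2.75), *Col1a2* (-3.18), *Col3a1* (-2.69), *Col5a3* (-1.77), *Col4a1* (-3.31), *Col6a3* (-3.72), *Col8a1* (-1.69), and *Col18a1* (-1.26), on the log2 scale, and they include 4 of the 10 fibrillar chains. The 4 higher chains were *Col4a5* (1.84), *Col4a6* (1.47), *Col6a5* (1.69), and *Col8a2* (1.22). *Ob/ob* 2 was not well above background for *Col4a1* and *Col6a3*, so each of these differences has 1 *ob/ob* array with a measured level. The fibrillar and collagen IV chains not past 2-fold gave differences between -0.89 (*Col5a1*) and 0.76 (*Col11a2*), with -0.16 for *Col4a3*, 0.66 for *Col4a4*, and -0.15 for *Col24a1*. The class medians were then -0.74 for fibrillar chains, 0.36 for basement membrane chains, and 0.22 for the other chains, beside 0.067 for all genes tested. *Col22a1* gave 0.27 (SE 0.23) without these 2 arrays. Control 2, *ob/ob* 2, and *ob/ob* 3 were each the only array of their scan, so array and scan cannot be told apart for them. Within the 1 scan that held both groups (control 1, control 3, and *ob/ob* 1), *ob/ob* 1 was below the mean of the controls by log2 differences of -1.69 for *Col1a1*, -2.10 for *Col1a2*, -1.55 for *Col3a1*, and -1.65 for *Col4a1*, with no replicate in the *ob/ob* group. It was above that mean by 0.73 for *Col6a5*, 0.61 for *Col8a2*, 0.44 for *Col4a4*, 0.39 for *Col4a6*, and 0.25 for *Col4a5*. That mean includes control 3, which stood apart from the other controls and read 4.63 for *Col4a1*, beside 4.61 in *ob/ob* 1.

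Of the 43 chains on the array, 14 had more than 1 probe. Their 20 other probes gave no unadjusted p under 0.05 and no separation of the groups, and 4 had the opposite sign to the brightest probe. The readings of the 2 probes of *Col14a1*, which decorates type I fibrils, ran against each other over the arrays. The brightest read 7.13, 7.58, and 8.23 in controls and 7.69, 7.84, and 5.85 in *ob/ob* mice (-0.52, SE 0.64). The dimmer read 6.96, 6.44, and 4.08 in controls and 3.06, 3.08, and 8.23 in *ob/ob* mice (-1.04, SE 1.56). This dimmer probe was well above background on 3 of the 6 arrays, so its other readings are not measured levels. A dim probe of *Col16a1* likewise had *ob/ob* 3 highest, at 5.50, 5.13, and 4.55 in controls and 4.46, 3.98, and 7.36 in *ob/ob* mice, whereas the brightest probe had it lowest among *ob/ob* arrays. *Col15a1* had a second dimmer probe with *ob/ob* 3 highest, and another, detected on all 6 arrays, with *ob/ob* 3 lowest, at 5.42, 5.55, and 5.55 in controls and 5.75, 5.82, and 5.29 in *ob/ob* mice (0.11, SE 0.32). A dimmer probe of *Col8a2*, detected on all 6 arrays, read 5.37, 5.27, and 5.62 in controls and 5.49, 5.83, and 5.52 in *ob/ob* mice (0.19, SE 0.31). There, unlike in the brightest probe, *ob/ob* 3 was not the lowest of its group. For these genes, the array pattern depends on the probe.

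Genes that make, process, and bind collagen were read from the same fit. Of 78 such genes, 73 were tested, 0 passed an adjusted p under 0.05, and 2 passed an unadjusted p under 0.05 (all genes 3.72%). In 5 the groups did not overlap (all genes 7.95%). Among 19 genes of chain modification and folding, the median difference was -0.16, and 9 lay above 0. *Serpinh1*, which encodes the collagen chaperone HSP47, read 13.63, 13.38, and 10.05 in controls and 9.70, 9.54, and 12.80 in *ob/ob* mice (-1.67, SE 1.28; unadjusted p = 0.236 in limma), an array order like that of *Col1a2*, except that *ob/ob* 3 lay below controls 1 and 2. *Crtap*, of the prolyl 3-hydroxylation complex, did not overlap between groups, at 7.60, 7.37, and 7.72 in controls and 8.17, 8.48, and 7.76 in *ob/ob* mice (0.57, SE 0.34). Nor did *Colgalt2*, a collagen galactosyltransferase, at 5.59, 5.53, and 5.23 in controls and 4.98, 4.84, and 5.20 in *ob/ob* mice (-0.45, SE 0.31).

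Procollagen-trimming genes (7 tested, 2 above 0) had a median difference of -0.15, and crosslinking genes (7 tested, 4 above 0) of 0.057. *Lox*, the lysyl oxidase that crosslinks fibrils, read 5.44, 4.83, and 4.35 in controls and 6.16, 5.32, and 10.30 in *ob/ob* mice (2.39, SE 1.28; unadjusted p = 0.109 in limma), and *ob/ob* 3 was far above all other arrays. Matrix-degrading enzymes (14 tested, 5 above 0) had a median of -0.092, and *Mmp2*, *Mmp9*, and *Mmp15* were not detected on enough arrays to be tested. The inhibitors of these enzymes (6 tested, 4 above 0) had a median of 1.11, and *Timp4* did not overlap between groups, at 6.43, 6.35, and 6.05 in controls and 6.55, 6.45, and 7.12 in *ob/ob* mice (0.43, SE 0.34).

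Of the 10 collagen receptors tested, 2 passed an unadjusted p under 0.05, both with an adjusted p of 1.0. *Itga1*, the alpha subunit of an integrin that binds collagen IV and I, read 8.34, 8.57, and 9.23 in controls and 7.77, 8.0, and 6.30 in *ob/ob* mice (-1.35, SE 0.55; unadjusted p = 0.0475 in limma), and every control was above every *ob/ob* array. *Lair1*, an inhibitory collagen receptor of immune cells, read 9.13, 8.86, and 9.26 in controls and 9.98, 10.29, and 9.54 in *ob/ob* mice (0.85, SE 0.35; unadjusted p = 0.0474 in limma), and every *ob/ob* array was above every control. Genes of TGF-beta signaling, which drives collagen transcription in fibroblasts, had a median of -0.077 over 10 tested. Of these, 8 had control 3 lowest and *ob/ob* 3 highest in their groups. So had 39 of all 73 tested genes that make, process, or bind collagen, and 34.5% of all genes. Without control 3 and *ob/ob* 3, the differences were -3.89 (SE 0.23) for *Serpinh1*, 0.61 (SE 0.34) for *Lox*, -0.57 (SE 0.24) for *Itga1*, 1.14 (SE 0.24) for *Lair1*, 0.84 (SE 0.24) for *Crtap*, -0.65 (SE 0.23) for *Colgalt2*, and 0.11 (SE 0.22) for *Timp4*. The list medians were then -0.22 for modification, 0.14 for trimming, 0.20 for crosslinking, 0.22 for degrading enzymes, -0.37 for their inhibitors, -0.72 for receptors, and -1.0 for TGF-beta signaling. The sign differed from that over all 6 arrays for the trimming, degrading, inhibitor, and receptor lists.

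In a bulk tissue, fewer cells of a type and less RNA per cell cannot be told apart, and markers of several cell types moved over the arrays with the fibrillar chains. Of all genes, 46.7% had control 3 highest among controls and *ob/ob* 3 lowest among *ob/ob* arrays. The order with control 3 lowest and *ob/ob* 3 highest was found in 34.5%. All 10 fibroblast markers had this second order, with mean log2 signals of 6.02 to 8.33 in controls and 5.52 to 9.51 in *ob/ob* mice. So did 7 of 8 skeletal muscle markers (7.95 to 10.42 in controls and 5.87 to 11.90 in *ob/ob* mice), 7 of 8 endothelial markers (7.32 to 9.07 and 6.46 to 8.21), 5 of 6 brown adipocyte markers (7.96 to 11.52 and 7.26 to 8.82), 4 of 5 adipocyte markers (9.53 to 11.53 and 9.80 to 11.56), and 4 of 7 mural cell markers (6.55 to 7.46 and 6.13 to 7.17). Of the macrophage markers only 1 of 6 did (7.81 to 8.11 in controls and 7.89 to 8.42 in *ob/ob* mice). Epidermis markers ran opposite in 4 of 4 (5.74 to 6.74 and 5.72 to 6.68), and Schwann cell markers did so in 2 of 4 (6.54 to 7.03 and 6.46 to 7.23). Of 5 cartilage markers, *Matn1* and *Hapln1* were not detected, and 1 of the 3 tested followed the fibrillar chains (6.87 to 7.49 and 6.67 to 7.14). The part of these cell types in the collagen signals was not tested.

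**Figure D5:**
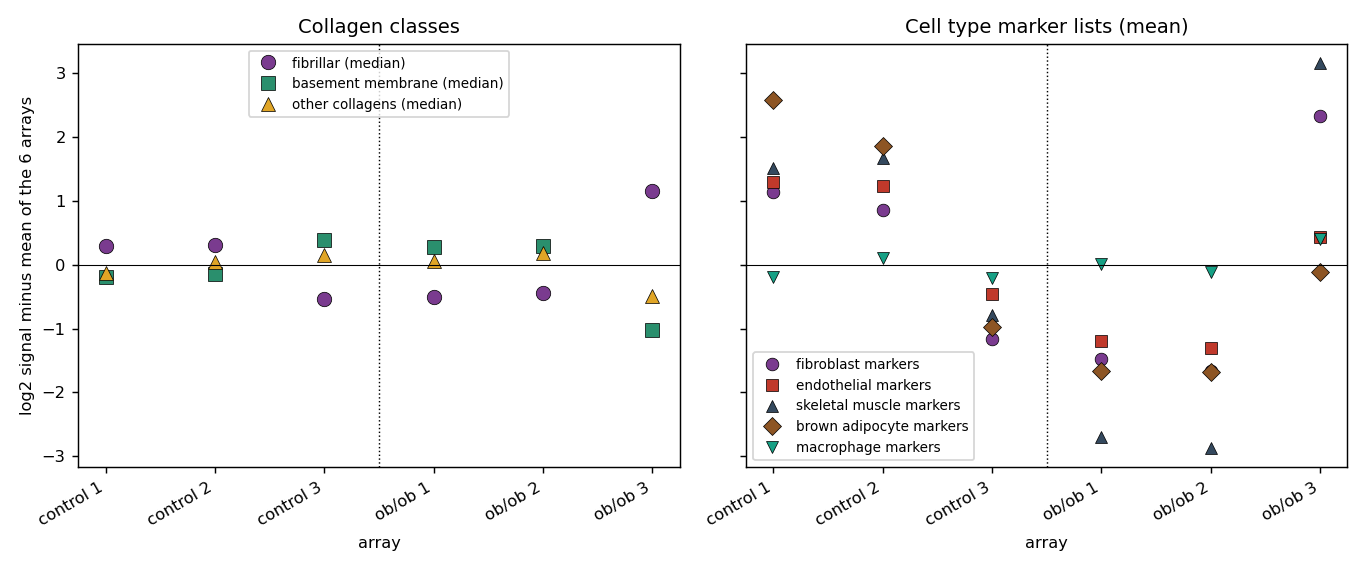
Median deviation of each collagen class (left) and mean deviation of marker lists (right) from each gene's mean over the 6 arrays, in log2 units, by array, with a dotted line between the groups. The fibrillar median (-0.54 in control 3 and 1.15 in *ob/ob* 3) has the same sign as the fibroblast list on every array (-1.17 in control 3 and 2.32 in *ob/ob* 3), and the basement membrane median the opposite sign.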

How the data were processed

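RNA of 6 iBAT samples was hybridized to 1 array each. The authors deposited scanner output (Agilent Feature Extraction 11.0.1.1), with spot intensity corrected for background within the array, and a table of log2 values normalized between arrays, used as an alternative. Spots with outlier flags were dropped, the log2 values of repeated spots were averaged, and 39325 probes were quantile normalized. Detection on 3 or more arrays left 35448 probes, which were tested with limma (version 3.58.1, R 4.3.3) for *ob/ob* against control. Adjusted p values are those of Benjamini and Hochberg across every probe tested. Names came from RefSeq accessions (GRCm38.p6), with the brightest probe per gene.

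The members, lists, and tests were chosen with earlier results of these data known. All tested fibrillar and collagen IV chains are named, with other chains and collagen-handling genes named for an unadjusted p under 0.05 or no overlap between groups, other chains also for a 2-fold difference, plus *Serpinh1*, *Lox*, and *Lep*. Other chains given with values were chosen after these were seen. The code was tested on simulated data. Alternatives were 75th percentile scaling, normexp (offset 50), the authors' values, other detection filters, the methods' t-test, limma with trend and robust estimation, replicate and scan blocks, leaving arrays out, and probe means.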

Additional observations from a re-analysis of the deposited data

How the results depend on the processing

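With 1 array left out at a time, the count of chains past an adjusted p under 0.05 stayed at 0, that of chains higher at 2-fold and an unadjusted p under 0.05 ran from 0 to 1, and that of chains lower from 0 to 3, the top of both ranges without *ob/ob* 3. The class medians ran from -0.46 to 0.076 (fibrillar), -0.44 to 0.18 (basement membrane), and -0.27 to 0.12 (other). The sign turned under at least 1 such omission for *Col1a1* (-2.07 to 0.54), *Col3a1* (-1.97 to 0.039), *Col5a1* (-0.67 to 0.36), *Col5a2* (-0.16 to 0.47), *Col5a3* (-1.19 to 0.63), *Col11a1* (-0.092 to 0.20), *Col11a2* (-1.11 to 0.42), *Col27a1* (-0.38 to 0.23), *Col4a1* (-2.27 to 0.28), *Col4a2* (-0.24 to 0.042), *Col4a4* (-0.19 to 0.43), *Col4a5* (-0.65 to 1.15), and *Col4a6* (-0.85 to 0.92).

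With control 3 and *ob/ob* 3 both left out, 18 chains passed an adjusted p under 0.05 (45%; 49.5% of all genes), 4 higher and 8 lower also passed 2-fold (10% and 20%; 16.5% and 23.2% of all genes), the median of the other classes was 0.22, and the sign turned for *Col5a1* (-0.89), *Col5a2* (-0.025), *Col11a2* (0.76), *Col4a2* (0.067), and *Col4a6* (1.47).

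Scaling to the 75th percentile moved the median of all genes from -0.085 to -0.30 and that of the other classes to -0.43 (-0.14 relative to all genes). The fibrillar median was then -0.47 (-0.17 relative to all genes, beside -0.081 before), and the basement membrane median -0.19, which turned from -0.033 to 0.11 relative to all genes. It also turned *Col5a3* (0.13), *Col11a1* (-0.36), and *Col4a4* (-0.19). The scan as a block gave medians of -0.45 (fibrillar), 0.035 (basement membrane, a change of sign), and -0.13 (other), and turned *Col5a1* (-0.49), *Col5a2* (-0.17), and *Col4a6* (0.39). That fit rests on *ob/ob* 1 against controls 1 and 3, the only scan with both groups. It thus repeats the within-scan differences given above and is not a separate check. The mean of all probes turned *Col4a4* (-0.013). The causes were not tested. Deviations of same-numbered samples from their group means correlated at -0.78, -0.66, and -0.85. Control 3 and *ob/ob* 3 stood apart in opposite directions, so these values cannot show whether replicate numbers pair the samples. With the replicate block, 0 chains passed an adjusted p under 0.05. The fibrillar median of -0.17 could not change under that block, since every replicate number is present in both groups. Normexp and the authors' values turned no sign among the 24 genes followed. The detection filters, the methods' t-test, and limma with both trend and robust estimation keep each gene's group means, so they could not turn a sign. None of these alternatives called a collagen chain past an adjusted p under 0.05. Over the whole array, limma with trend and robust estimation called 1 probe (adjusted p = 0.0413), and 0 collagen chains. Detection on all 6 arrays left 19 of these genes.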
